A study of Cavia porcellus with 18 samples.

Results

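The genes described here have 2 or more listed transcripts whose start sites lie more than 1000 bases apart. They were taken from the deposited table of CG sites, which gives each site the nearby gene, transcript and start position. The rule found 329 of 19244 listed genes, or 1.71%, with 741 of the 20111 listed transcripts. It used positions only and no measured value. The data come from the hippocampus of 3 wild type male guinea pigs aged 12 weeks, in 6 kinds of library with 3 libraries each, 1 per animal. These were ChIP-seq for Pol II PS5, ChIP-seq for H3K4me1, bisulfite sequencing of H3K4me1 ChIP DNA (ChIP-bisulfite), bisulfite RRBS read at 50 bases, bisulfite RRBS read at 100 bases, and RRBS without bisulfite. The last were digestion controls and were not analysed here. All groups shared tissue, age, sex and genotype, and the labels name no treatment.

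Many genes begin transcription at more than 1 promoter, and the choice of promoter can change the first exon, the protein or the cells in which the gene is used. Active vertebrate promoters often lie in CG-rich DNA that carries little methylation, while CG sites inside transcribed genes are commonly methylated. RNA polymerase II phosphorylated on serine 5 of its tail (PS5) is the form found at initiation. H3K4me1, monomethylation of histone H3, marks enhancers and the DNA beside promoters. RRBS reads CG methylation in DNA cut with restriction enzymes. ChIP-bisulfite reads it in chromatin precipitated with the H3K4me1 antibody.

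Each deposited value pooled the 3 animals. No spread between animals could be computed, and no comparison here tests animals against each other. The p-values and the intervals of read percentages cover counting error of the pooled reads only. Reads were summed over CG sites, so a read over several sites was counted at each. Intervals of shares of start sites cover the counting of start sites and involve no reads. The files gave Ensembl gene identifiers without symbols, so the tissue could not be checked against marker genes and no gene role is stated. Positions below are those of the deposited files, on the scaffolds they name. The sources used here did not state their genome build or whether counting begins at 0 or 1, and exons and introns could not be assigned.

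Listed start positions of a gene that lay within 1000 bases of each other were joined into 1 start site. This gave 686 start sites on 111 scaffolds, from 164 genes on the plus strand and 165 on the minus strand. Of the 329 genes, 302 had 2 start sites, 25 had 3 and 1 had 6. In 1 gene a chain of close positions joined into a single start site, so 328 genes could be compared. The distance between the outermost listed starts of a gene ran from 1002 to 786754 bases, with a median of 24281 and quartiles of 6787 and 77342. It was 2000 bases or less in 32 genes and over 100000 bases in 70. The 3 genes just inside the limit spanned 1002, 1023 and 1038 bases, on scaffold_433, scaffold_356 and scaffold_13. The 3 genes just outside it spanned 1000, 987 and 985 bases, on scaffold_109, scaffold_4 and scaffold_12.

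Polymerase was found less often at the downstream start site of a gene than at its upstream start site. A Pol II PS5 peak lay within 1000 bases of 18 of 328 downstream start sites, or 5.49% (exact 95% binomial interval 3.28 to 8.53), against 57 of 328 upstream start sites, or 17.4% (13.4 to 21.9). The intervals do not overlap, though they do not use the pairing of start sites within a gene. Among the 29 start sites in the middle of genes with more than 2, 4 had a peak, or 13.8% (3.89 to 31.7). The 18915 other genes had a peak at 21.2% of their start sites (20.6 to 21.8), so the upstream start sites lay close to the other genes and the downstream ones below them. Within genes, 13 had a peak at the downstream start site only, 52 at the upstream start site only, 5 at both and 258 at neither.

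The height of the Pol II PS5 peaks, in the authors' peak score, was described only among start sites with a peak. The highest peak at each of the 18 downstream start sites scored 2.42 to 13.6, with a median of 3.46. At the 57 upstream start sites the scores ran from 2.30 to 16.2, with a median of 4.70. The 4008 start sites of other genes with a peak had a median of 5.35. The downstream and upstream ranges overlapped almost entirely.

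In 5 genes both outermost start sites had a Pol II PS5 peak, and the start sites of a gene shared no peak. On scaffold_12 the highest peak scored 3.51 at the downstream start (15607955) and 5.99 at the upstream start (15622510). On scaffold_52 it scored 6.71 downstream (12437502) and 2.68 upstream (12375582). On scaffold_6 it scored 5.71 downstream (58050879) and 5.45 upstream (57990296). On scaffold_80 it scored 3.19 downstream (6209258) and 3.34 upstream (6145304). On scaffold_4 it scored 3.01 downstream (45500692) and 3.42 upstream (45718312). The downstream peak was the higher one in the genes on scaffold_52 and scaffold_6 and the lower one in the genes on scaffold_12, scaffold_80 and scaffold_4. The upstream peak on scaffold_52 also lay over the upstream start (12375430) of another gene described here, on the opposite strand, and is counted at both.

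H3K4me1 was common at both start sites. A peak of this mark lay within 1000 bases of 257 of 328 downstream start sites, or 78.4% (73.5 to 82.7), against 285 of 328 upstream start sites, or 86.9% (82.7 to 90.3). The other genes had one at 87.3% of their start sites (86.8 to 87.7). A peak covered the start position itself at 53.0% of downstream and 65.9% of upstream start sites, and at 68.0% of the start sites of other genes. Within genes, 22 had the mark at the downstream start site only, 50 at the upstream start site only, 235 at both and 21 at neither. The median width of the peaks was 4808 bases downstream, 5722 bases upstream and 5519 bases in other genes.

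Fewer CG sites were measured at downstream start sites. At least 1 CG site with values from both bisulfite assays lay within 1000 bases of 75 downstream start sites, or 22.9% (18.4 to 27.8), against 113 upstream start sites, or 34.5% (29.3 to 39.9), and 36.7% of the start sites of other genes (36.0 to 37.4). At least 3 CG sites, the minimum used for the test below, lay at 7.32% of downstream, 13.7% of upstream and 16.3% of other start sites. RRBS reads only fragments flanked by its cut sites and the table holds only sites with 10 or more RRBS reads. A start site without a CG site in both assays therefore has no level in the comparisons of CG sites. Some of these start sites have an RRBS level in the H3K4me1 intervals described below.

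**Figure D1:**
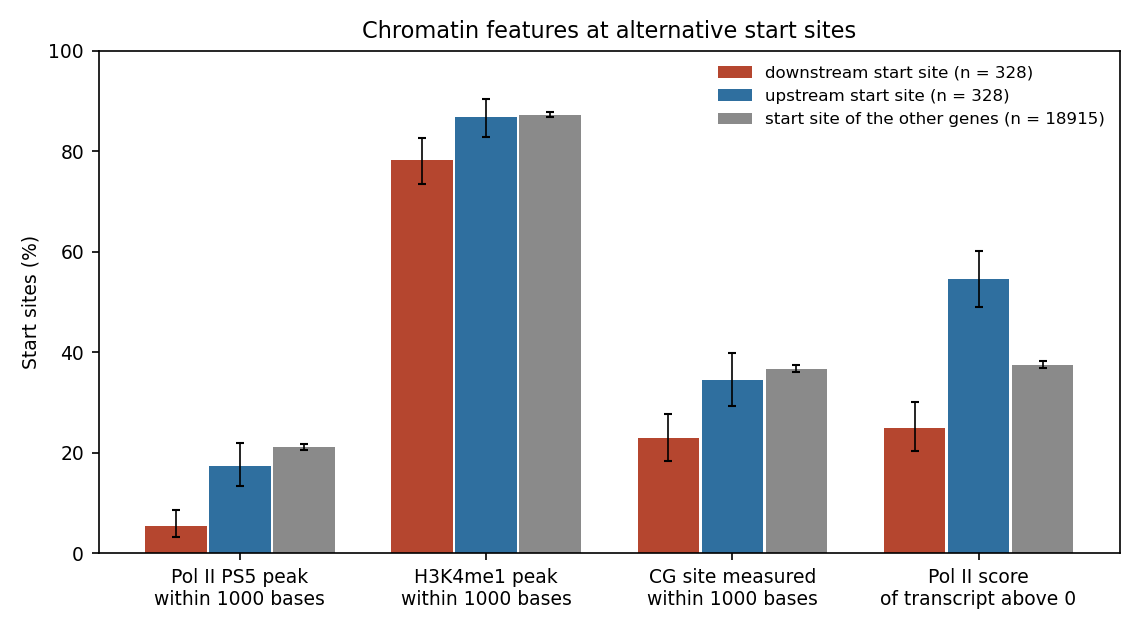
Share of start sites (%) with each feature for downstream start sites (n = 328), upstream start sites (n = 328) and start sites of the 18915 other genes, with exact 95% binomial intervals as bars. Downstream start sites have the lowest share of all 4 features, and the gap is widest in proportion for the Pol II PS5 peak (5.49% against 17.4% upstream).

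The deposited table also gives each transcript a Pol II score, and in most genes with a score it did not come from a peak at a start site. A score above 0 was listed for 212 of the 329 genes, or 64.4%, against 7088 of the 18915 other genes, or 37.5%. A gene was counted if any of its transcripts had a score, and the 329 genes list more transcripts each. By start site the shares were 25% downstream and 54.6% upstream. Each of the 212 genes carried exactly 1 nonzero value however many start sites it had. Transcripts of the gene carried either that value or 0. In 45 genes every transcript had the value, in 167 some had it and others had 0, and 117 genes had none. Among all 375 genes with 2 or more transcripts and a score, 0 carried more than 1 nonzero value.

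The values were matched to the deposited Pol II PS5 peaks. For 7127 of 7396 scored transcripts, or 96.4%, the score equalled the mean score of a run of consecutive peaks beginning no more than 1000 bases upstream of the start, within a relative tolerance of 1e-05. This held for 191 of the 212 genes described here. The score equalled 1 peak in 81 of them and a mean of 2 or more, at most 19, in 110. Of the 542 peaks in these means, 68 (12.5%) lay within 1000 bases of a listed start site of the gene. The median distance of a peak to the nearest start site was 23061 bases and the largest 478152. In 132 of the 191 genes, or 69.1%, no peak in the mean lay within 1000 bases of any listed start site.

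Scores and peaks at the start sites therefore differed. Of 79 start sites with a Pol II PS5 peak, 74 also had a score and 5 had a score of 0. Of 272 start sites with a score, 198 (72.8%) had no peak within 1000 bases. In the other genes this was so for 3418 of 7088 scored genes, or 48.2%. Among the 302 genes with 2 start sites, 28 had the score downstream only, 116 upstream only, 49 at both and 109 at neither. For this reason the peaks were used below as the measure of polymerase at a start site, with the scores beside them.

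Among the 6 genes with the largest difference in score, the genes on scaffold_10 and scaffold_47 had their score from peaks more than 1000 bases from any start site. On scaffold_10 the downstream start (20254919) had a score of 0 and the upstream start (20116136) had 23.2, but neither had a peak within 1000 bases. That score was the mean of 4 peaks, the highest of which scored 82.8, and the nearest lay 1044 bases from a start site. On scaffold_47 the downstream start (1681103) had 0 and the upstream start (1461905) had 10.5, a mean of 4 peaks of which the nearest lay 3695 bases away. The 8 CG sites at that upstream start averaged 18.1% in RRBS and 34.5% in ChIP-bisulfite.

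In the other four the score came from 1 peak near the scored start. On scaffold_29 the downstream start (8301511) had 0 and the upstream start (8372800) had 16.2, with the peak over it. On scaffold_57 the downstream start (2132003) had 0 and the upstream start (2094215) had 10.2, and 2 CG sites at the upstream start were at 0% in both assays. On scaffold_4 the downstream start (38545775) had 0 and the upstream start (38485138) had 9.55, and 9 CG sites at the upstream start were at 0% in both assays over 130 RRBS reads. On scaffold_687 the order was turned round, with 13.6 at the downstream start (33130) and 0 at the upstream start (27843). The peak lay 973 bases from that downstream start, whose single CG site was at 100% in both assays.

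The gene with the most start sites lies on the minus strand of scaffold_4. Its 6 start sites, in the direction of transcription, were at 45718312, 45714146, 45710259, 45561728, 45558098 and 45500692. All 6 had an H3K4me1 peak within 1000 bases. A Pol II PS5 peak lay at those at 45718312, 45714146, 45561728 and 45500692. The score of 3.74 was listed at all but the start at 45710259, so the start at 45558098 had the score and no peak. CG sites were measured near the start at 45714146 only, where 6 sites averaged 0% in RRBS over 90 reads and 1.33% in ChIP-bisulfite.

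Methylation was higher on average at the downstream start sites that could be measured, though the levels spread over the whole scale. The 75 downstream start sites with a CG site averaged 48.4% in RRBS (SD 35.0 across start sites, median 48.8%), against 33.6% at 113 upstream start sites (SD 33.9, median 25%). In ChIP-bisulfite the downstream start sites averaged 38.4% (SD 38.9, median 20%) and the upstream ones 29.5% (SD 37.2, median 9.33%). The start sites of other genes averaged 36.2% in RRBS (SD 35.3, n = 6945) and 32.4% in ChIP-bisulfite (SD 37.7). The differences are smaller than 1 SD across start sites.

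The groups differed in how many start sites had low methylation, more so in RRBS than in ChIP-bisulfite. RRBS was at or below 20% at 23 of the 75 downstream start sites (30.7%), 54 of the 113 upstream ones (47.8%) and 46.5% of those of other genes. ChIP-bisulfite was at or below 20% at 50.7% of the downstream start sites, 57.5% of the upstream ones and 54.4% of those of other genes. RRBS was at or above 80% at 21 downstream start sites (28%), 16 upstream ones (14.2%) and 17.9% of those of other genes. These are mostly different genes, since 48 had a measured site at the downstream start only and 86 at the upstream start only.

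Start sites with a Pol II PS5 peak had lower levels in all 3 groups. Downstream start sites averaged 26.2% in RRBS with a peak (SD 34.2, n = 9) and 51.4% without (SD 34.3, n = 66). Upstream start sites averaged 22.5% with a peak (SD 30.1, n = 26) and 36.9% without (SD 34.4, n = 87). In other genes the means were 21.0% with a peak (SD 27.8, n = 2298) and 43.7% without (SD 36.2, n = 4647). In ChIP-bisulfite the median was 8.64% with a peak and 26.2% without at downstream start sites, 0% with and 18.6% without at upstream ones, and 1.63% with and 25% without in other genes. The gap between start sites with and without a peak was thus present in the 2 kinds of alternative start site and in ordinary genes.

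Along these genes, averaged gene by gene, the RRBS level was lowest at the upstream start site. The 10000 bases before it averaged 52.7% in RRBS (175 genes), the upstream start site itself 33.6% (113 genes), the DNA between the start sites 60.1% (222 genes), the downstream start site 48.4% (75 genes) and the DNA past it, up to 10000 bases, 63.1% (193 genes). ChIP-bisulfite averaged 44.3%, 29.5%, 52.9%, 38.4% and 58.1% at the same places. Middle start sites, measured in 6 genes only, averaged 48% in RRBS and 28.6% in ChIP-bisulfite, the lowest ChIP-bisulfite mean. Both assays thus had lower means at the upstream and downstream start sites than in the DNA around them.

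The dip was then taken within each gene, as the start site minus the DNA between the start sites of the same gene. At the downstream start site, 58 genes averaged 49.5% in RRBS (SD 34.3) at the start and 55.3% (SD 22.2) between, with a median difference of -3.82 points. The start was lower in 30, higher in 26 and equal in 2. At the upstream start site, 82 genes averaged 32.8% (SD 33.0) at the start and 58.6% (SD 22.2) between, with a median difference of -30.8 points. Here the start was lower in 58, higher in 23 and equal in 1.

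Large dips were also uneven between the positions. The start was lower by 20 points or more in 20 of 58 genes downstream and in 50 of 82 upstream, and higher by as much in 16 and in 15. In ChIP-bisulfite the median difference was -12.5 points downstream (33 lower, 23 higher) and -25.6 points upstream (53 lower, 27 higher). The difference between the positions was not tested, since most genes in the 2 groups are different ones.

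**Figure D2:**
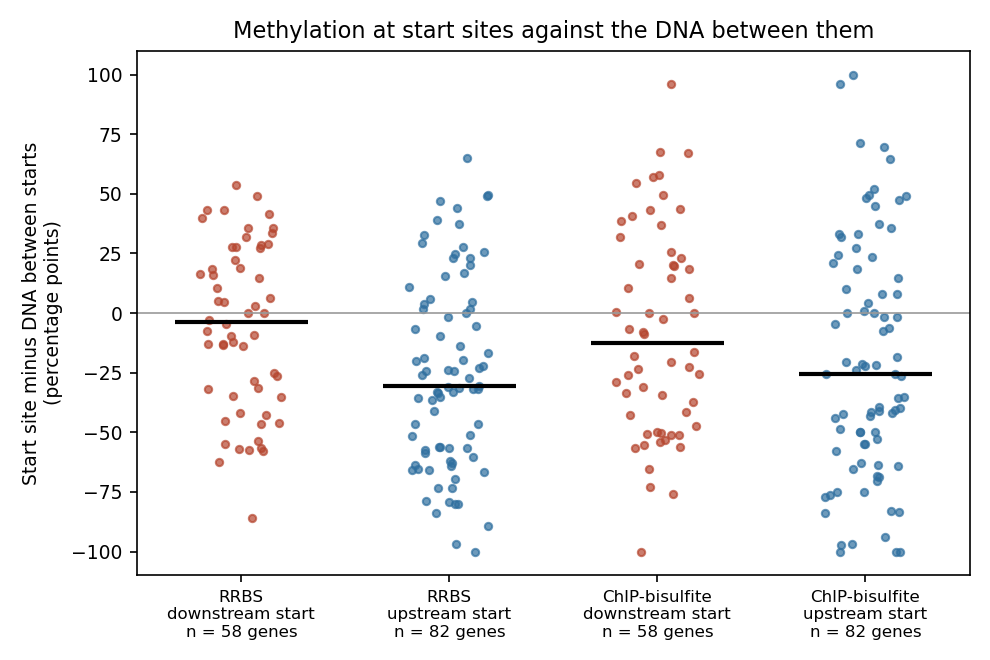
Mean CG methylation at a start site minus that of the DNA between the start sites of the same gene (percentage points), 1 point per gene, with the median as a black line. In RRBS the downstream start sites scatter evenly about 0 (median -3.82, n = 58), while most upstream start sites lie below it (median -30.8, n = 82).

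Both start sites could be compared directly in few genes. In genes with more than 2 start sites, the outermost of those with enough data were taken, called downstream and upstream here too. With 3 or more CG sites required at each, 6 genes remained, 1 of them compared at a middle start site, and methylated and unmethylated RRBS reads were set against each other by a two-sided Fisher's exact test per gene with Benjamini-Hochberg adjustment over the 6. A gene was called at an adjusted p under 0.05 with a difference in mean level of 20 points or more. By this rule 3 of 6 genes were called (50%), 2 higher and 1 lower at the downstream start site. Among 517 pairs of neighbouring start sites of different genes, up to 205076 bases apart, 52.2% were called by the same rule, so the share within genes lies at this background. Adjacent positions, which a CG read on both strands would give, were counted as separate sites. Counted once, the starts at 15341048 on scaffold_10 and 629860 on scaffold_248 would have fewer than 3. The first of these belongs to a called gene. Neighbouring CG sites often share the same reads, so the p-values are too small and the intervals of read percentages too narrow.

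The 1 called gene that was lower downstream was ENSCPOG00000000771, on the plus strand of scaffold_42. At its downstream start (13426497) all 9 CG sites were at 0% in both assays, with 0 methylated of 228 RRBS reads summed over the sites. The exact 95% binomial interval reached 1.60%, too low a limit where sites share reads. At its upstream start (13206104), 220393 bases before, 7 sites had RRBS levels of 100%, 89%, 72%, 95%, 53%, 47% and 7%, in all 78 methylated of 116 reads (67.2%, interval 57.9 to 75.7). The RRBS levels of the start sites do not overlap, and the difference in mean level was -66.1 points (adjusted p = 7.11e-48, Fisher's exact test).

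ChIP-bisulfite had the same direction with a smaller size in that gene. The 9 downstream sites were at 0%, and the 7 upstream sites had 15%, 26%, 25%, 80%, 30%, 20% and 27%, a difference of -31.9 points. A Pol II PS5 peak lay at the downstream start and none at the upstream one, although the table gives both the score of 4.09. All 7 upstream sites lay 511 to 808 bases past the start, while 7 of the 9 downstream sites lay 4 to 112 bases past theirs. The sites compared therefore differed in their distance from the start as well.

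ENSCPOG00000001427, on the plus strand of scaffold_52, was higher downstream. It has 3 start sites, and the outermost are compared. At its downstream start (7560298) 5 CG sites had RRBS levels of 78%, 72%, 67%, 78% and 100%, with 72 methylated of 91 reads (79.1%, interval 69.3 to 86.9). Those at 7560106 and 7560107, and those at 7560109 and 7560110, are adjacent positions. At its upstream start (7334824), 225474 bases before, 3 sites had 0%, 0% and 17%, with 5 methylated of 71 reads (7.04%, interval 2.33 to 15.7). The levels do not overlap. The difference was 73.3 points (adjusted p = 2.38e-21, Fisher's exact test). The start between them (7388062) had 2 sites, whose levels ran from 0% to 100% in both assays, and no Pol II PS5 peak.

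In that gene ChIP-bisulfite gave nearly the same difference. The downstream sites had 100%, 75%, 100%, 38% and 100%, and the upstream sites 0%, 0% and 28%, again without overlap and with a difference of 73.3 points. The upstream start had a Pol II PS5 peak and a score of 3.81. The downstream start had neither. The start site with the peak was thus the one with little methylation in both genes that had a peak at 1 start. In the gene on scaffold_52 the distances differed too. Its upstream sites lay at -720, -711 and -630 bases from the start and its downstream ones at -192 to -188 and at 712.

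ENSCPOG00000003998, on the plus strand of scaffold_10, was also higher downstream and had no Pol II PS5 peak or score at either start. Its downstream start (15341048) had 3 sites at 100%, 100% and 67% in RRBS, with 75 methylated of 84 reads (89.3%, interval 80.6 to 95.0). The first 2 of these sites, at 15340632 and 15340633, are adjacent positions. The upstream start of the gene (15325630), 15418 bases before, had 8 sites all at 0%, with 0 methylated of 110 summed reads (interval up to 3.30%). The difference was 89.0 points (adjusted p = 1.15e-43, Fisher's exact test). In ChIP-bisulfite the downstream sites had 100%, 100% and 0%, and the upstream sites had 4%, 45% and 6 times 0%. They overlap, with a difference of 60.5 points. One H3K4me1 peak of 19970 bases reached both start sites.

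The other 3 genes were not called. The gene on the minus strand of scaffold_184 had 100%, 86% and 9% at its start at 170034, the second of its 3 start sites and the one taken as downstream, and 0% to 78% over 8 sites at its upstream start (193099), a difference of 21.9 points (adjusted p = 0.136, Fisher's exact test). The gene on the minus strand of scaffold_248 had 25%, 36% and 36% downstream (581205) and 100%, 7% and 60% upstream (629860), a difference of -23.3 points (adjusted p = 0.165, Fisher's exact test) against 12.7 points in ChIP-bisulfite. In both genes the levels of the start sites overlap.

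The gene on the plus strand of scaffold_11 had an adjusted p of 0.000832 (Fisher's exact test) but a difference of -16.5 points, under the limit. Its downstream start (12676208) had 6 sites at 0% and others at 41% and 67%. Its upstream start (12665662) had 3 sites at 0% and others at 83% and 67%. At both start sites the CG sites with RRBS levels above 0% were those farther upstream, at -519 and -365 bases from the downstream start and at -703 and -653 bases from the upstream one. Its start sites lie 10546 bases apart under 1 H3K4me1 peak.

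**Figure D3:**
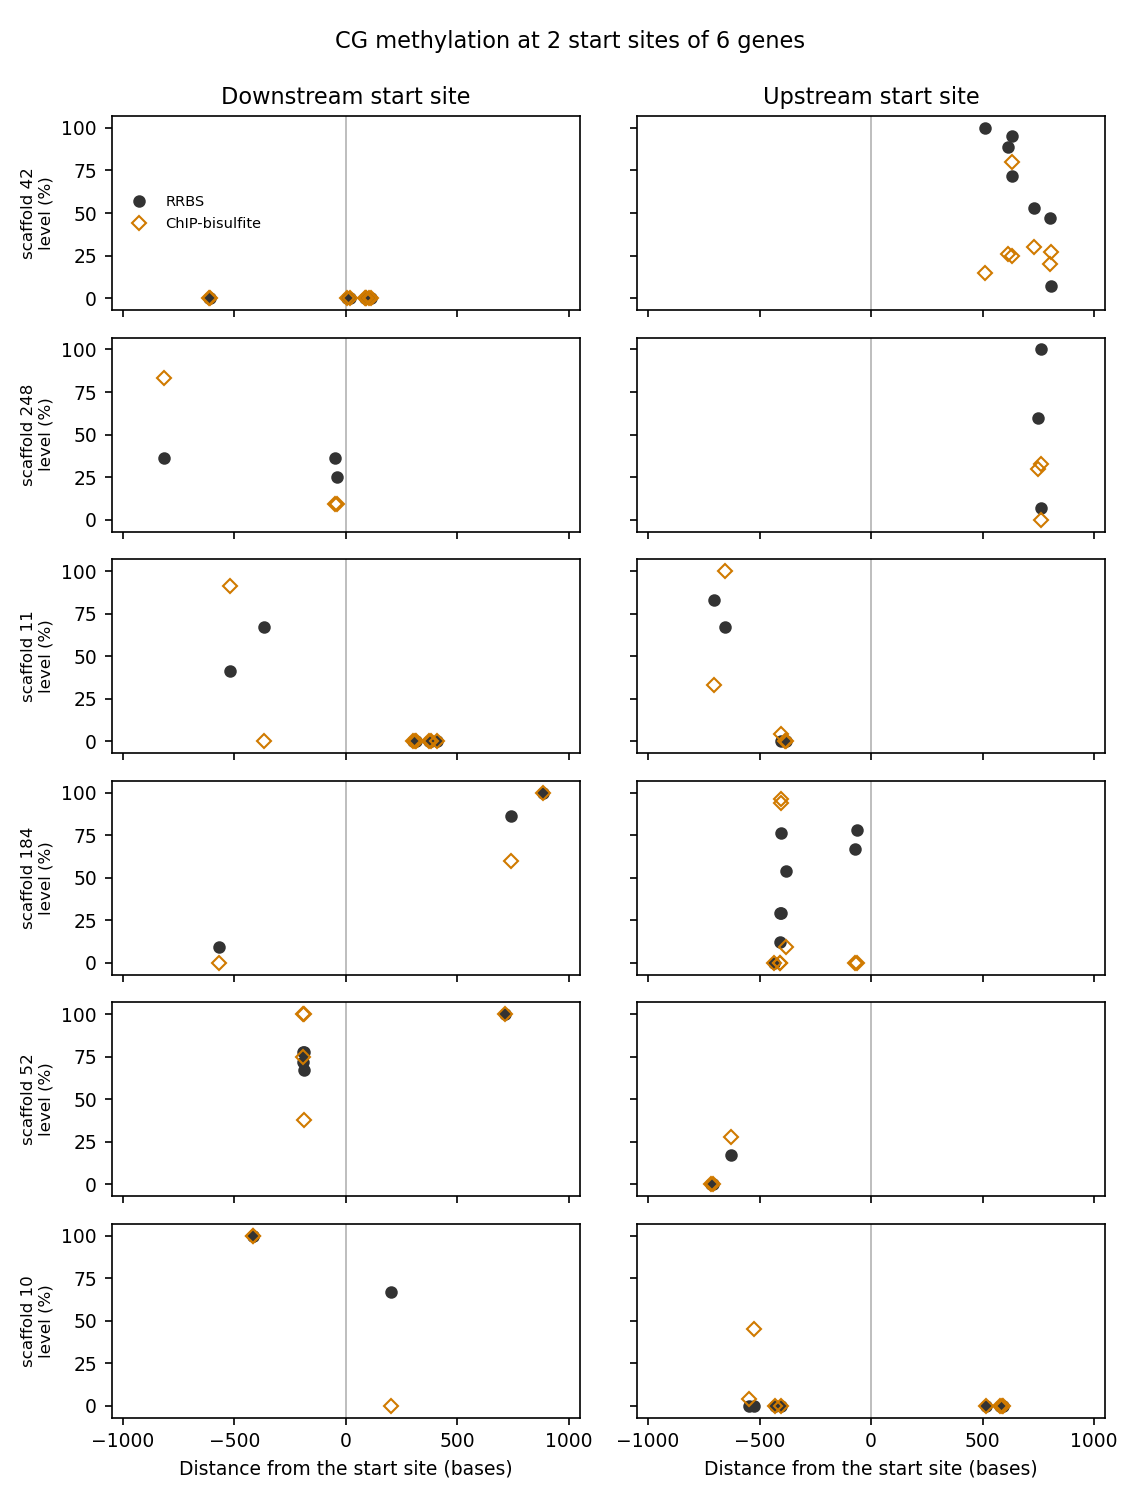
CG methylation level (%) of each measured site against its distance from the start site (bases, positive in the direction of transcription), with downstream start sites in the left column and upstream ones in the right, for the 6 genes with 3 or more sites at each. Filled circles are RRBS and open diamonds ChIP-bisulfite; on scaffold 42 all 9 downstream sites lie at 0%, and on scaffolds 52 and 10 most downstream sites lie above 60% while the upstream RRBS levels are 17% or less.

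With 1 CG site at each start site as the minimum, 30 genes could be compared, 3 of them at a middle start site. Their downstream start sites averaged 47.6% in RRBS (SD 37.5) and their upstream ones 37.3% (SD 35.5). The downstream start was higher in 15 genes, lower in 12 and equal in 3, with a median difference of 4.00 points and a range from -94.1 to 100 points. In ChIP-bisulfite it averaged 39.2% downstream (SD 38.6) and 34.0% upstream (SD 38.1), with 14 higher, 14 lower and 2 equal. No shared direction between downstream and upstream start sites appeared in these genes.

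Large differences in both directions were frequent. In 19 of the 30 genes the start sites differed by 20 points or more in RRBS, and 16 were called (53.3%), 10 higher and 6 lower downstream. The background of neighbouring start sites of different genes was 57.1% called of 2310 pairs, so 2 start sites of 1 gene differed about as often as neighbours from different genes. The median size of the RRBS difference was 24.4 points within genes and 31.5 points between neighbours of different genes, at median distances of 36665 and 24447 bases. With 3 or more sites at each start site the order was the other way, with 44.7 points within the 6 genes and 22.4 points between the 517 pairs of neighbours.

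The assays had the same direction in 20 of the 30 genes, opposite directions in 6, and no difference in at least 1 assay in 4. Among the 16 called genes, 13 had the same direction, 2 the opposite and 1 no difference in ChIP-bisulfite. The 2 with opposite directions lie on scaffold_9 and scaffold_27. On scaffold_9 the downstream start (50437887) had 32.6% in RRBS and the upstream start (50409380) 0%, while ChIP-bisulfite had 19.6% downstream and 23.5% upstream. On scaffold_27 the downstream start (1822914) had 100% in RRBS and the upstream start (1786998) 36%, against 95.5% downstream and 100% upstream in ChIP-bisulfite.

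In 4 of the 30 genes both start sites were at or below 20% in RRBS, and in 1 both were at or above 80%. The downstream start was at or above 80% and the upstream at or below 20% in 3 genes, and the reverse held in 1. This last gene was ENSCPOG00000013559, on the minus strand of scaffold_15, named here after its values were seen. Its downstream start (30939386) had 12 sites averaging 5.92% in RRBS over 156 reads and 1.33% in ChIP-bisulfite. Its upstream start (31075577) had 1 site at 100% in both assays, over 18 RRBS reads (adjusted p = 2.09e-17, Fisher's exact test over 30 genes). Neither start had a Pol II PS5 peak or a score.

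The largest difference, also chosen after its values were seen, was in a gene on the minus strand of scaffold_42. Its listed start sites lie between those of ENSCPOG00000000771. Its downstream start (13301323) had 2 sites at a mean of 100% in both assays. Its upstream start (13414121) had 2 sites averaging 0% in RRBS and 17.5% in ChIP-bisulfite. Thus the same stretch of scaffold_42 held 2 start sites at 0% in RRBS, 13414121 and 13426497, belonging to genes on opposite strands. In ChIP-bisulfite the start at 13414121 had sites at 0% and 35%, while all sites at 13426497 were at 0%. One is the upstream start of its gene and the other the downstream start.

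**Figure D4:**
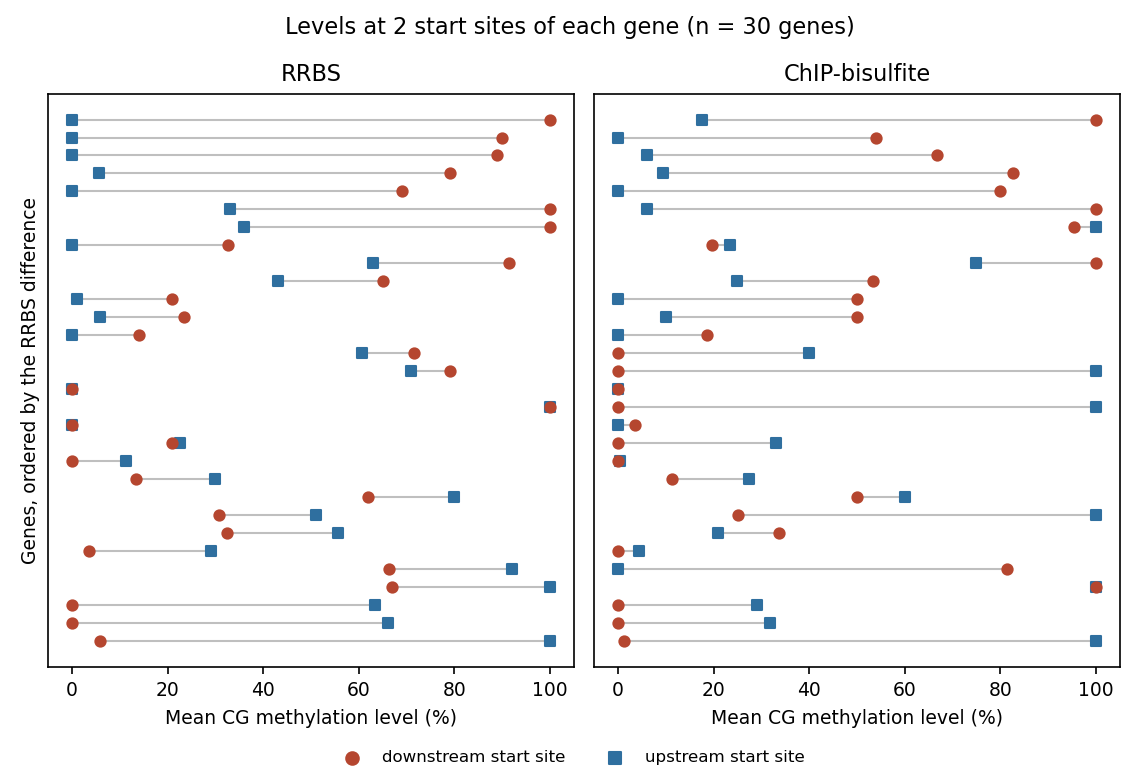
Mean CG methylation level (%) at the downstream (red circles) and upstream (blue squares) start site of each of 30 genes with 1 or more CG sites at both, ordered by the RRBS difference, for RRBS on the left and ChIP-bisulfite on the right. The downstream start is the higher one in 15 genes and the lower one in 12 in RRBS, and the differences run from -94.1 to 100 points.

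Few genes allowed methylation to be set against polymerase within the gene. A Pol II PS5 peak at 1 of the 2 start sites, with CG sites at both, was found in 5 genes. RRBS averaged 26.1% at the start with the peak and 48.0% at the start without, lower in 3 and higher in 2. ChIP-bisulfite averaged 21.7% with the peak and 47.6% without, lower in 4 and higher in 1. The peak was at the downstream start in 2 of the 5.

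The score gave 17 genes with CG sites at both start sites and a score at only 1. Most of the scored starts had no Pol II PS5 peak within 1000 bases. On scaffold_9 the peak lay at the unscored start (50437887). The values here describe the score, not polymerase at the start. RRBS averaged 26.8% at the scored start and 53.9% at the unscored one, with a median difference of -20.2 points, lower in 12, higher in 4 and equal in 1. ChIP-bisulfite averaged 21.5% at the scored start and 52.8% at the unscored one, lower in 11, higher in 5 and equal in 1. By the Fisher rule 10 were called lower and 1 higher at the scored start. The scored start was the downstream one in only 3 of the 17, so score and position along the gene cannot be told apart here.

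A second table gave the authors' mean methylation for each interval under H3K4me1, computed over all measured C positions in the interval, and allowed more genes. Of its 99978 intervals, 28212 (28.2%) were equal to a listed H3K4me1 peak, so intervals and the peaks described above often differ in their bounds. An interval with 3 or more C positions lay within 1000 bases of 323 of 685 start sites (47.2%). In 20 genes the same interval served both start sites. In 72 genes 2 start sites had an interval each, and in 4 of these the pair included a middle start site. An interval called at a start site lay within 1000 bases of it and did not always cover the start position. The level is that of the whole interval, which could be long. The upstream interval of ENSCPOG00000000771 ran from 13203486 to 13217272. The median interval had 18 C positions at either end, with 329.5 RRBS reads downstream and 379.5 upstream. These reads include those behind the CG sites above, so the 2 tables are not independent.

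In these 72 genes the downstream interval averaged 58.9% in RRBS (SD 24.1, median 64.3%) and the upstream one 46.0% (SD 25.2, median 48.0%). The downstream interval was higher in 45 genes and lower in 27, with a median difference of 12.9 points (SD 34.7 across genes). It was higher by 20 points or more in 31 and lower by as much in 12. It was higher by 40 points or more in 17 and lower by as much in 4. With intervals over the start position itself, 70% of 40 genes were higher downstream. Start sites of other genes averaged 46.9% (SD 27.7, n = 10731), a level close to that of the upstream start sites.

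All 6 genes with 3 or more CG sites at each start had 2 intervals. This includes ENSCPOG00000003998 and the gene on scaffold_11, where 1 listed H3K4me1 peak reached both start sites. The 3 called genes had the same direction in the interval table. For ENSCPOG00000000771 the downstream interval had 14.1% and the upstream one 47.4%. For ENSCPOG00000001427 they had 85.3% downstream and 28% upstream. For ENSCPOG00000003998 they had 66.5% downstream and 17.8% upstream. The gap was smaller than at the CG sites near the start in all 3 genes. Among the other 3, the gene on scaffold_11 turned round, with 58.1% downstream and 32.8% upstream, a difference of 25.4 points against -16.5 points at its CG sites. Of the 16 genes called with 1 or more sites, 14 had 2 intervals, with the same direction in 10 and the opposite in 4. The opposite ones lie on scaffold_24, scaffold_390, scaffold_13 and scaffold_23, where interval differences of 10.4, 12.9, 8.42 and -22.8 points stood against -63.5, -33.0, -25.5 and 20 points at the CG sites. Of all 27 genes in both comparisons, 14 had the same direction, 10 the opposite and 3 no difference at the CG sites.

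Some of the largest interval differences lay in other genes. On scaffold_15 the interval at the downstream start (324506), from 321500 to 325180, averaged 94.3% over 8 C positions, and that at the upstream start (284407), from 281569 to 285807, averaged 7.41% over 25. On scaffold_1 the intervals averaged 74.3% near the downstream start (19978198) and 5.97% at the upstream start (19867051). In the other direction, ENSCPOG00000013559 had 9% downstream, from 30936943 to 30941490, and 73.7% upstream, from 31075295 to 31078771. On scaffold_29 the intervals averaged 21.2% at the downstream start (2816295) and 69.8% at the upstream start (2757386). These 4 genes had no Pol II PS5 peak at either start and are shown for that and for their size, after the values were seen. Genes on scaffold_4 and scaffold_91 with differences of 77.0 and 73.5 points had a peak at the upstream start and are described below.

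Where 1 of the 2 start sites compared had a Pol II PS5 peak, its interval was mostly the lower one. In 18 such genes the interval at the start with the peak averaged 31.8% (SD 23.4) and that at the start without 63.6% (SD 23.0), with a median difference of -34.2 points. It was lower in 14 genes and higher in 4. It was lower in 3 of 4 genes where the peak lay downstream and in 11 of 14 where it lay upstream. With the peak downstream in only 4 genes, peak and position along the gene were not separated, and their parts were not tested. One of the 18 was the gene with 6 start sites, compared at 45558098, which has no peak, although its outermost start sites both have one. With outermost start sites only, 17 genes were left, with 32.8% at the start with the peak and 64.1% at the start without, lower in 13 and higher in 4. In 52 genes without a peak at either start compared, the downstream interval averaged 59.9% and the upstream one 50.7%, higher downstream in 31 and lower in 21, with a median difference of 11.6 points.

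Single genes spanned a wide range. On scaffold_4, where the start sites lie close together, the interval averaged 0% near the upstream start with the peak (45226012) and 77.0% near the downstream start without (45224654), over 6 and 4 C positions. On scaffold_91 it averaged 18.5% near the upstream start with the peak (3497404), from 3497732 to 3500422. Near the downstream start without (3692428) it averaged 92.0%, from 3693044 to 3696154. Neither of these intervals covers its start. On scaffold_63 it averaged 0.64% at the upstream start with the peak (7234125) and 64.3% at the downstream start without (7014253). On scaffold_52, with the peak downstream, it averaged 30.5% at the downstream start (8267961) and 67.6% near the upstream start (8480582). The opposite case was a gene on scaffold_4 with 39.1% at the upstream start with the peak (23111918) and 4.90% at the downstream start without (23136199).

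**Figure D5:**
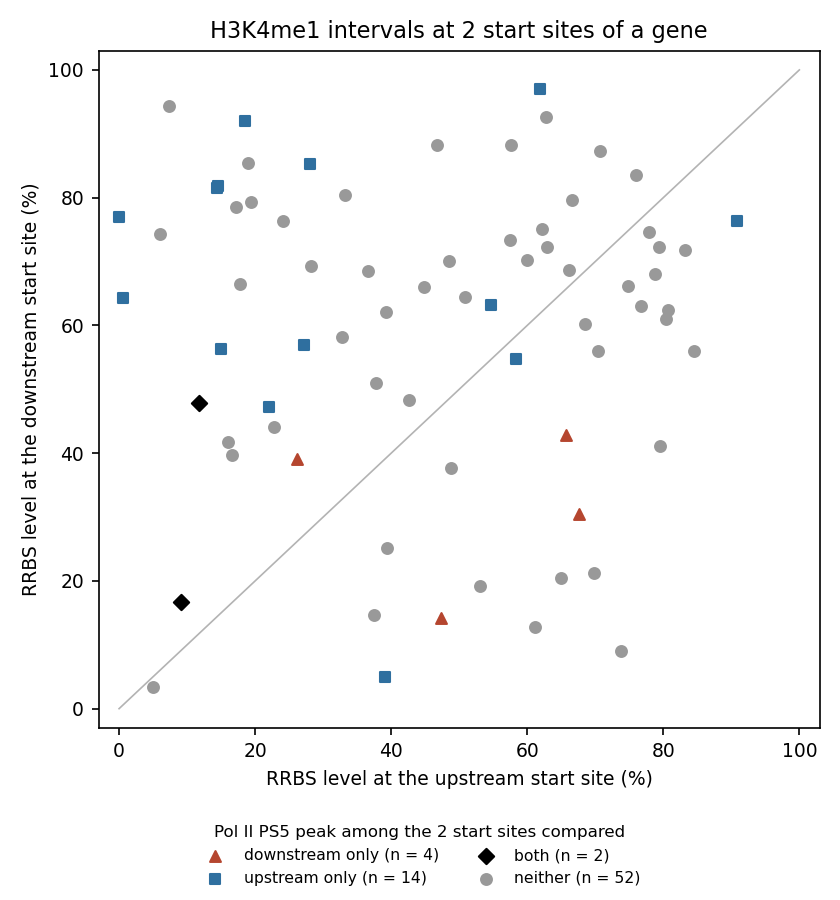
RRBS level (%) of the H3K4me1 interval within 1000 bases of the downstream start site against that at the upstream start site for 72 genes. Symbols give where a Pol II PS5 peak lay among the 2 start sites compared, and the grey line marks equal levels. Of the 14 genes with the peak at the upstream start compared, 11 lie above the line, of the 4 with it at the downstream start compared, 3 lie below it, and the 52 genes with neither lie on both sides (31 above, 21 below).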

How the data were processed

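Per the submitters' processing notes, Bowtie2 2.2.3, MACS2 and HOMER 4.6 were among the tools for ChIP-seq, Bismark 0.12.5 for ChIP-bisulfite, BSMAP 2.74 for RRBS, and SAMtools 1.1 and methylKit were also used. The notes give no role or order. The deposited methylation levels are in percent, rounded to whole percent per CG site, and each pools the 3 animals. The deposited peak lists and the transcript table hold a Pol II score, and the peak lists an H3K4me1 score, both as the authors gave them. The deposited RRBS counts of reads per position were joined to the sites by position. All 167387 sites matched, and the level times the reads gave a whole number of reads, within 0.5 points, at 99.9% of the 133897 sites with under 30 reads. The authors' table of interval averages gives reads per interval as estimated counts, not whole in 975 of 198160 lines. The median depth was 17 RRBS reads per site. The read number behind a ChIP-bisulfite level is unknown.

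A CG site was assigned to its nearest start site of the gene within 1000 bases, and listed duplicates were counted once. Of 8778 pairs of a site and a member gene, 3928 (44.7%) were listed with several transcripts, and 1887 (21.5%) both with a score and with 0. Fisher's exact test (scipy 1.17.1, Python 3.11.15, pandas 2.3.3, numpy 2.4.6) was tested on simulated data first. The simulated reads were independent, so reads shared by neighbouring CG sites were not covered. The p-values were adjusted by Benjamini-Hochberg over the genes tested. Intervals for shares are exact Clopper-Pearson at 95%. Genes named were the called ones with the largest difference, the 6 with the largest score difference and the one with the most start sites (25 tied for the next place). Of the gene identifiers, 0 matched the reference table, so the lists of brain genes and cell type markers were not used. Columns of values mapped to no sample numbered 0. The members and lists were chosen with earlier results of these data known. The choice to lead with peaks over the score, the interval comparison and its alternatives came after seeing the data. No sequences are given, since no genome of the files' build was used here.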

Additional observations from a re-analysis of the deposited data

How the results depend on the processing

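The count of genes called between start sites depended on how many could be tested. It was 3 of 6 as reported, 0 of 1 with a window of 500 bases, 7 of 15 with 2000 bases, 16 of 30 with at least 1 CG site, 6 of 15 with at least 2 (added after seeing the data), 1 of 2 with at least 5 and 0 of 1 with at least 20 RRBS reads per site. It was 3 or 4 when start sites had to lie more than 5000 bases apart, when only the nearest site was used, and with a minimum difference of 40 points or none. The share of genes higher downstream in ChIP-bisulfite was 66.7% of 6, and 0% with a window of 500 bases (1 gene), at least 5 CG sites (2 genes) or at least 20 reads (1 gene). It was 53.3% of 15 with a window of 2000 bases, 53.3% of 15 with at least 2 CG sites and 46.7% of 30 with at least 1. Its side of 50% thus depended on the setting. The share of genes with lower RRBS at the start with a score was 50% of 2, 42.9% of 7 with a window of 2000 bases, 70.6% of 17 with at least 1 CG site and 57.1% of 7 with at least 2, so its side of 50% depended on the setting. It was 100% of 2 at the start with a peak. The score share could not be computed with a window of 500 bases, at least 5 sites or 20 reads, where no gene was left. Genes with a score at some start sites only made up 49.4%, and those with a peak at some only 20.4%. The share of neighbouring pairs called was 52.2%, and 37.3% with at least 5 sites. The gene on scaffold_184 turned to -69.0 points with the nearest site, and that on scaffold_11 to 9.57 points with a window of 500 bases; the cause was not tested. The share higher downstream in H3K4me1 intervals stayed between 62.0% and 70% under 5 alternatives, against 62.5%. No paired analysis was possible because each deposited value pools the 3 animals. For the same reason no library could be left out.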
